A study of Mus musculus with 14 samples.

Results

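The genes described here are 10 genes of IL-6 family cytokine signalling in skeletal muscle: the cytokines Il6 and Lif, the receptor chains Il6ra, Il6st, Lifr and Osmr, the kinase Jak2, the transcription factor Stat3, and the feedback inhibitors Socs3 and Cish. They were chosen by gene symbol as cytokine, receptor and feedback genes of cancer wasting, and are 10 of the 19505 genes measured. RNA was hybridised to Clariom S arrays of Affymetrix, 1 for each animal, from gastrocnemius (a calf muscle of mostly fast fibres) of 14 male C57BL/6 mice that carried subcutaneous Panc02 pancreatic tumours. The HMB group of 7 mice was fed the AIN-93G diet with added calcium salt of HMB (β-hydroxy-β-methylbutyrate, a leucine metabolite taken to preserve muscle), starting 1 week before the tumour cells were injected. The control group of 7 mice was fed AIN-93G alone. All 14 mice therefore had tumours, no tumour-free muscle was analysed here, and the study describes its tumour model as one that does not bring on cachexia. The labels speak of anti-PD1 treatment without stating whether these mice received it. The study reports injections of anti-PD1 or of an isotype control antibody for every mouse of this experiment. It names the muscle groups control and control + HMB, with no mention of anti-PD1. The labels also speak of homogenised tumour where they describe RNA extraction, although their tissue field names gastrocnemius.

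IL-6 family cytokines signal by joining receptor chains at the cell surface, and the shared chain gp130, the product of Il6st, is used by IL-6, LIF and oncostatin M alike. The receptor-bound kinases then phosphorylate Stat3, which enters the nucleus and induces acute phase genes together with Socs3, a protein that shuts the same receptor down. In muscle this route is known both for wasting during chronic inflammation and cancer and for the response of muscle stem cells to injury, and Cish is the related inhibitor that growth hormone and other Stat5-activating signals induce.

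The promoters of the feedback inhibitors are shown because these genes are known to be induced through STAT proteins, which bind palindromes of the form TTCNNNGAA. That motif reads the same on both strands, and it was searched in RefSeq windows (mouse build GRCm38.p6) running from 250 bases before to 50 bases after a transcript start. All 10 genes matched, with 11 windows. The start of the window lay inside the annotated gene for Stat3 (by 54 bases), Osmr (655), Socs3 (970) and both windows of Lifr (38962 and 49932), and no window at the outer start of these genes was searched. The motif was found in the windows of 2 of the 10 genes, Cish and Socs3. It occurred in 8.3% of all 32851 windows, and 0.457% of them held at least 2 copies. The Cish stretch covers chr9:107296409-107296678 on the plus strand, with both copies, in capitals, within the first 20 bases of the annotated transcript. The Socs3 stretch covers chr11:117969501-117969530 on the minus strand, with its 1 copy, in capitals, at bases -154 to -146 from the start of its window's transcript, which is within the annotated gene.
Cish: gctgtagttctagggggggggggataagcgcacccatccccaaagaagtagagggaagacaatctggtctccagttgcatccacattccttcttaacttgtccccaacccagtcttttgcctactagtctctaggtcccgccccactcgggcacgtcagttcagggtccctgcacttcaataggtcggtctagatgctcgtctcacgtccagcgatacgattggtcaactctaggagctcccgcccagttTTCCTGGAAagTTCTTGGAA
Socs3: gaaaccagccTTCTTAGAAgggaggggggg
A match describes the letters of these windows and is not evidence of binding in these muscles.

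Values are in log2 units as deposited, and since that scale was inferred from the values, differences are given in log2 units (HMB minus control) and not as folds. Background was read on each array from 5222 intron control probesets, whose 95th percentile was 10.53 to 10.87 and whose median was 6.25 to 6.67. On each array 22.1% to 24.5% of all genes were above that percentile, so most genes lay under it. The 10 markers of fast muscle were all above that percentile on some array, with a mean of 18.11 to 18.36 in HMB muscle and 17.98 to 18.34 in control muscle, while none of the 5 epithelial tumour markers was above it on any array. Control 7 stood apart, with a median correlation of 0.960 with the other arrays, against 0.977 to 0.986 for the rest. Its mean over 9 lymphocyte markers was 10.43, where no other array exceeded 4.43, and its mean over 6 adipocyte markers was 14.18, where no other array exceeded 12.71. HMB 4 had the highest mean over 9 macrophage and monocyte markers, at 10.35.

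No difference between HMB and control muscle was detected for any of the 10 genes, and the intervals around the differences ran from narrow for the shared receptor chain to wide for Cish. None of the 10 passed limma, either after Benjamini-Hochberg adjustment over all genes or at an unadjusted p under 0.05. Over the whole array 0 of 19505 genes (0%) passed the adjusted threshold and 885 (4.54%) had an unadjusted p under 0.05, of which 458 were higher (2.35%) and 427 lower (2.19%) in HMB. With each array centred on its median the unadjusted calls were 631 higher and 242 lower. Of the 10 genes, 7 had a higher mean in HMB and 3 a lower one, against 51.7% of all genes with a higher mean, and their median difference was 0.07, against 0.0090 over all genes. The smallest unadjusted p of the 10 was 0.150 (Lif). The 2 groups overlapped for each of the 10 genes, which says little, since few of the 3432 splits of the arrays separate fully. The share of all genes that overlapped was not counted. Leaving out 1 array at a time gave 6 to 8 genes with a higher mean. In whole muscle, fewer cells of a type and less RNA per cell cannot be told apart.

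**Figure D1:**
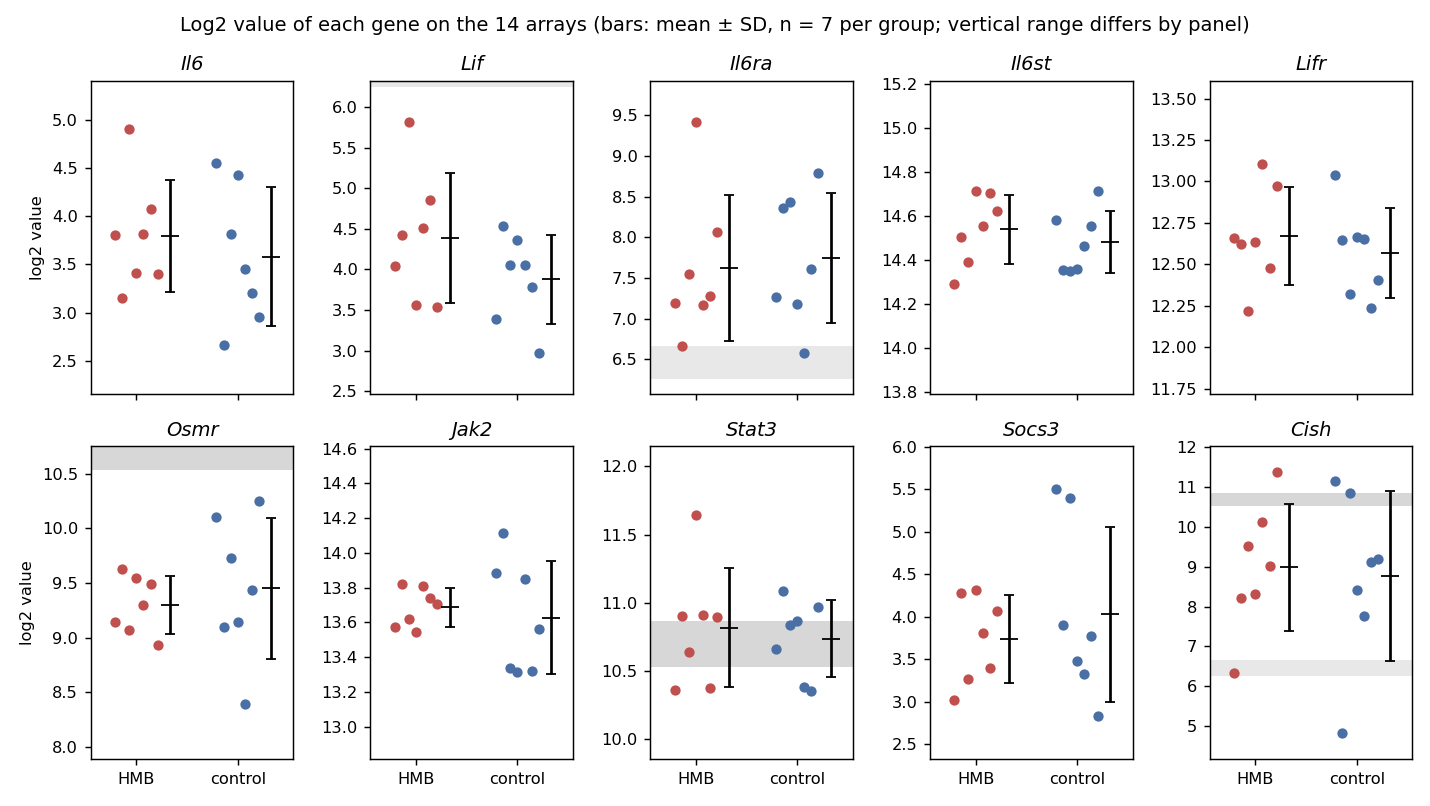
Log2 value of each of the 10 genes on every array, HMB on the left and control on the right, with the mean and SD of 7 arrays as bars; the darker band is the range over arrays of the 95th percentile of the intron controls and the paler band that of their median. HMB and control points overlap in every panel, and the Cish panel spans 6.54 log2 units.

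The cytokine genes were at background. Il6, the founding cytokine of the family, was 3.15 at its lowest, 3.80 at the median and 4.90 at its highest in HMB muscle, against 2.66, 3.45 and 4.55 in control muscle. Lif, a cytokine made by injured muscle that acts on muscle precursor cells, was 3.53, 4.43 and 5.83 in HMB muscle and 2.97, 4.05 and 4.54 in control muscle. Both genes lay below the median of the intron controls on all 14 arrays, so neither transcript was measurable above background. The Lif difference of 0.51 (SE 0.338, 95% confidence interval -0.21 to 1.23) had an unadjusted limma p of 0.150, an adjusted p of 0.990 and an exact permutation p of 0.190, and 5 of 7 HMB arrays were above the control mean. It was 0.27 without HMB 3, the array with the highest values of both Lif and Il6. For Il6 the difference was 0.21 (-0.48 to 0.90, exact permutation p = 0.554). Of the 8 other ligands of the family that were measured, 5 had a higher and 3 a lower mean in HMB, and none passed the adjusted threshold. Ctf1, the gene of cardiotrophin-1, ran from 9.25 to 11.09 in HMB muscle and from 8.84 to 10.20 in control muscle (difference 0.35, limma adjusted p = 0.990). Osm, the gene of oncostatin M, ran from 2.95 to 4.04 in HMB muscle and from 3.26 to 5.06 in control muscle (difference -0.50, limma adjusted p = 0.990), again below the median of the intron controls. Il27, at 2.04 to 3.01 in HMB muscle and 2.43 to 3.55 in control muscle, had an unadjusted limma p of 0.0488 (difference -0.44) and was also below that median.

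Among the receptor chains, Il6st and Lifr were measured well above background. Il6st was 14.29, 14.55 and 14.71 (lowest, median and highest) in HMB muscle, and 14.35, 14.46 and 14.71 in control muscle. Lifr, which pairs with gp130 to bind LIF, was 12.22, 12.63 and 13.11 in HMB muscle and 12.24, 12.65 and 13.04 in control muscle. Both were above the 95th percentile of the intron controls on all 14 arrays, and both groups covered nearly the same range. The Il6st difference was 0.06 (SE 0.112, 95% confidence interval -0.18 to 0.30, exact permutation p = 0.468) and the Lifr difference 0.10 (SE 0.161, -0.24 to 0.45, exact permutation p = 0.501), with an adjusted limma p of 0.996 for each. These intervals leave room for a shift of at most 0.30 for Il6st and 0.45 for Lifr in either direction. With each array centred on its median the Il6st difference was 0.13 and still did not pass.

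Il6ra and Osmr, the chains that give the complex its specificity for IL-6 and oncostatin M, lay between the median and the 95th percentile of the intron controls. Il6ra was 6.67, 7.28 and 9.42 in HMB muscle and 6.58, 7.60 and 8.79 in control muscle. HMB 4 held the highest value and control 7 the next, and 2 of 7 HMB arrays were above the control mean. The Il6ra difference was -0.13 (SE 0.417, -1.01 to 0.76, exact permutation p = 0.785), and it became 0.05 without control 7, 0.03 without HMB 2 and -0.43 without HMB 4. Osmr was 8.93, 9.30 and 9.63 in HMB muscle and 8.39, 9.44 and 10.25 in control muscle. All HMB values lay inside the control range, with an SD of 0.26 in HMB and 0.64 in control, a difference in spread that was not tested. The Osmr difference was -0.15 (SE 0.250, -0.68 to 0.39, exact permutation p = 0.585), and -0.01 without control 7, its highest array. Of the markers that set control 7 apart, 4 of the 9 measured lymphocyte genes and all 6 adipocyte genes were above the 95th percentile of the intron controls on some array. The part of these cells in the Il6ra and Osmr values was not tested.

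Among 5 other receptor and shedding genes, Adam10, a protease that sheds membrane receptors, had the smallest p. It was 10.85 to 11.20 in HMB muscle and 11.07 to 11.80 in control muscle, so the groups overlapped slightly. The difference was -0.37 (SE 0.125, -0.63 to -0.10), with an unadjusted limma p of 0.00993 that did not pass after adjustment (0.990). Its relative Adam17, the main sheddase of the IL-6 receptor, ran from 10.95 to 11.67 in HMB muscle and from 11.14 to 11.99 in control muscle (difference -0.28, adjusted p = 0.990). Cntfr, the receptor chain for ciliary neurotrophic factor, ran from 9.11 to 10.93 in HMB muscle and from 8.53 to 10.17 in control muscle (difference 0.43, adjusted p = 0.990). In this list 2 genes had a higher and 3 a lower mean in HMB, and the median difference was -0.28.

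**Figure D2:**
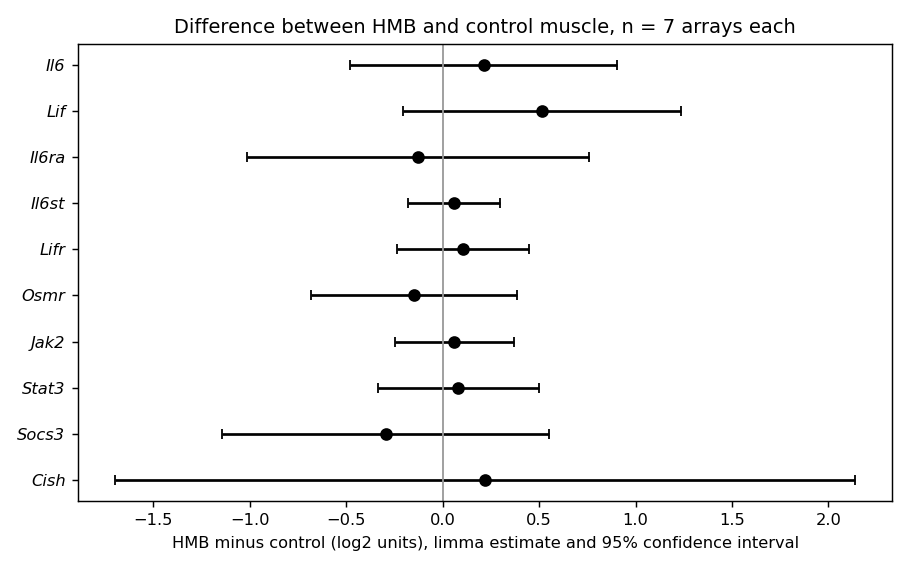
Difference between HMB and control muscle in log2 units for each of the 10 genes, as the limma estimate (point) with its 95% confidence interval (line), from 7 arrays per group. Every interval includes 0, and the intervals run from -0.18 to 0.30 for Il6st up to -1.70 to 2.14 for Cish.

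Jak2, a kinase that binds gp130, was above the 95th percentile of the intron controls on all 14 arrays. It was 13.54, 13.70 and 13.82 in HMB muscle and 13.32, 13.56 and 14.11 in control muscle. Every HMB value lay inside the control range, and the SD was 0.11 in HMB and 0.32 in control. The difference was 0.06 (SE 0.145, -0.25 to 0.37, exact permutation p = 0.643). Of 7 other JAK and STAT genes, 2 had a higher and 5 a lower mean in HMB and none had an unadjusted p under 0.05. Stat2, which serves the interferon response, ran from 8.01 to 9.20 in HMB muscle and from 8.44 to 9.82 in control muscle (difference -0.44, limma adjusted p = 0.990).

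Stat3 itself, at chr11:100886806-100939594 in the same build, was close to the 95th percentile of the intron controls and exceeded it on 8 arrays, 4 from each group. The upper quartile of all genes, at 10.43 to 10.50 on each array, was below that percentile. Stat3 was 10.36, 10.90 and 11.65 in HMB muscle and 10.36, 10.84 and 11.09 in control muscle. HMB 4 stood alone at 11.65, with the other 6 HMB arrays at 10.36 to 10.91, and control 2 was the next highest of all arrays. The difference was 0.08 (SE 0.196, -0.34 to 0.50, limma adjusted p = 0.996, exact permutation p = 0.700), and it became -0.06 without HMB 4 and -0.02 without both HMB 4 and control 7. HMB 4 was also the array with the highest macrophage marker mean. That list had 3 of its 9 measured genes above the 95th percentile of the intron controls on some array, and its mean ran from 8.32 to 10.35 in HMB muscle and from 8.72 to 9.92 in control muscle. The part of these cells in the Stat3 value was not tested.

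Over the 14 arrays, 45 pairs of the 10 genes were correlated, and none passed after adjustment over the 45. The only pair with an unadjusted permutation p under 0.05 was Il6ra with Stat3. Pearson's r was 0.707 (permutation p = 0.00464, adjusted p = 0.209) and Spearman's rho 0.380 (permutation p = 0.183, adjusted p = 0.704). Within groups r was 0.749 in HMB and 0.704 in control. Without control 7 and HMB 4, the arrays farthest from the median of Il6ra, r was 0.418, and it was 0.496 without HMB 4 alone. Leaving out arrays picked for extreme Il6ra values narrows its range, which can itself lower r. How far the relation rests on them was therefore not tested. No pair of a receptor with Socs3 or of Stat3 with Socs3 reached an unadjusted p under 0.05.

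Stat3 was next set against 34 of its known target genes, a comparison added after the data had been seen. The list holds acute phase, survival and metal-binding genes, and in HMB against control muscle 13 of the 34 had a higher and 21 a lower mean, with a median difference of -0.09 and none past the adjusted threshold. A2m, the acute phase protein alpha-2-macroglobulin, had the smallest p, at 2.71 to 4.28 in HMB muscle and 3.98 to 5.42 in control muscle (limma difference -0.97, unadjusted p = 0.00491, adjusted p = 0.990). Each value of A2m was below the median of the intron controls. Saa3, an inflammatory serum amyloid gene, was 4.67 to 6.53 in HMB muscle and 4.07 to 5.61 in control muscle (difference 0.59, adjusted p = 0.990). Saa3 exceeded the median of the intron controls only on HMB 7 and their 95th percentile on no array. Tnfrsf12a, the receptor of the cytokine TWEAK, ran from 10.40 to 11.91 in HMB muscle and from 11.25 to 12.49 in control muscle (difference -0.39, adjusted p = 0.990).

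From animal to animal, 25 of the 34 targets had a positive r with Stat3, with a median r of 0.330, and 10 had an unadjusted permutation p under 0.05, of which none passed adjustment over the 34. Over the 19504 genes other than Stat3, 47.6% had a positive r and 7.09% an unadjusted permutation p under 0.05, against 73.5% and 29.4% of the targets, a contrast that was not tested. These r values compare transcript levels, and the phosphorylated Stat3 that acts on the targets was not measured. The metallothionein gene Mt1, whose protein binds zinc and copper, had the highest r, at 0.752 (permutation p = 0.00191, adjusted p = 0.0542), with a rho of 0.631 (permutation p = 0.0187, adjusted p = 0.139). Its r was 0.859 within HMB and 0.542 within control, and 0.650 without control 6 and HMB 4, the arrays farthest from the median of Stat3. Serpina3n, an acute phase protease inhibitor, had an r of 0.715 (permutation p = 0.00319, adjusted p = 0.0542; 0.602 without those arrays) and a rho of 0.622 (permutation p = 0.0204, adjusted p = 0.139). Lrg1, a secreted acute phase glycoprotein, had an r of 0.678 (permutation p = 0.00611, adjusted p = 0.0598) and a rho of 0.701 (permutation p = 0.00646, adjusted p = 0.110), and r was 0.811 without those arrays. Pim1, a kinase gene induced by STATs, ran the other way with an r of -0.657 (permutation p = 0.0123, adjusted p = 0.0598; -0.347 without those arrays) and a rho of -0.473 (permutation p = 0.0922, adjusted p = 0.348). Mt1 was above the 95th percentile of the intron controls on all 14 arrays, Pim1 on 6, Serpina3n on 1 and Lrg1 on none. Without control 6 and HMB 4, r was nearer to 0 by over 1.5 times for 6 of the 10 targets. These were Pim1 and 5 positive ones, Bcl2l1, Mcl1, Cebpb, Cebpd and Lcn2, whose r was then 0.280 to 0.403. Leaving out the arrays farthest from the median of Stat3 narrows its range, which can itself lower r. How far these relations rest on those arrays was therefore not tested. The r values of Mt1, Serpina3n, Lrg1 and Pim1 were further from 0 within HMB than within control, a difference that was not tested, and the HMB values include HMB 4.

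HMB 4 held the highest value of 10 of the 34 targets, among them the anti-apoptotic genes Bcl2l1 and Mcl1, the acute phase genes Lcn2 and Hp, and both metallothioneins. That is 29.4% of the targets, against 8.1% of all genes other than Stat3. HMB 4 was also the highest array in the mean of the macrophage markers (10.35), of the neutrophil markers (5.10, all 6 measured below the median of the intron controls on every array) and of the epithelial markers (6.51, 0 of 5 above the 95th percentile). HMB 4 and control 2 were the highest arrays for 6 targets, namely Bcl2l1, Cebpb, Cebpd, Lcn2, Mt1 and Mt2. The share of all genes with these 2 arrays highest was not counted, and the pair was picked after the values had been seen. Mt2 was 16.32 on HMB 4 and 16.12 on control 2, with the next array at 14.54, and Mt1 was 16.51 and 15.86 on the same arrays, with the next at 14.96. These are the 2 arrays highest in Stat3, and they come from different groups. Control 7 held the highest value of 7 other targets, including Lrg1, Serpina3n and Orm1, which is 20.6% of the targets against 14.6% of all genes, and it is the array of the lymphocyte and adipocyte markers. The part of these other cells in the target values was not tested. Of the 34 targets, 5 were above the 95th percentile of the intron controls on all 14 arrays, and 19 were above it on none. On any single array, 22.1% to 24.5% of all genes were above it. That is a different measure, and the shares of all genes above it on all 14 arrays or on none were not counted.

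**Figure D3:**
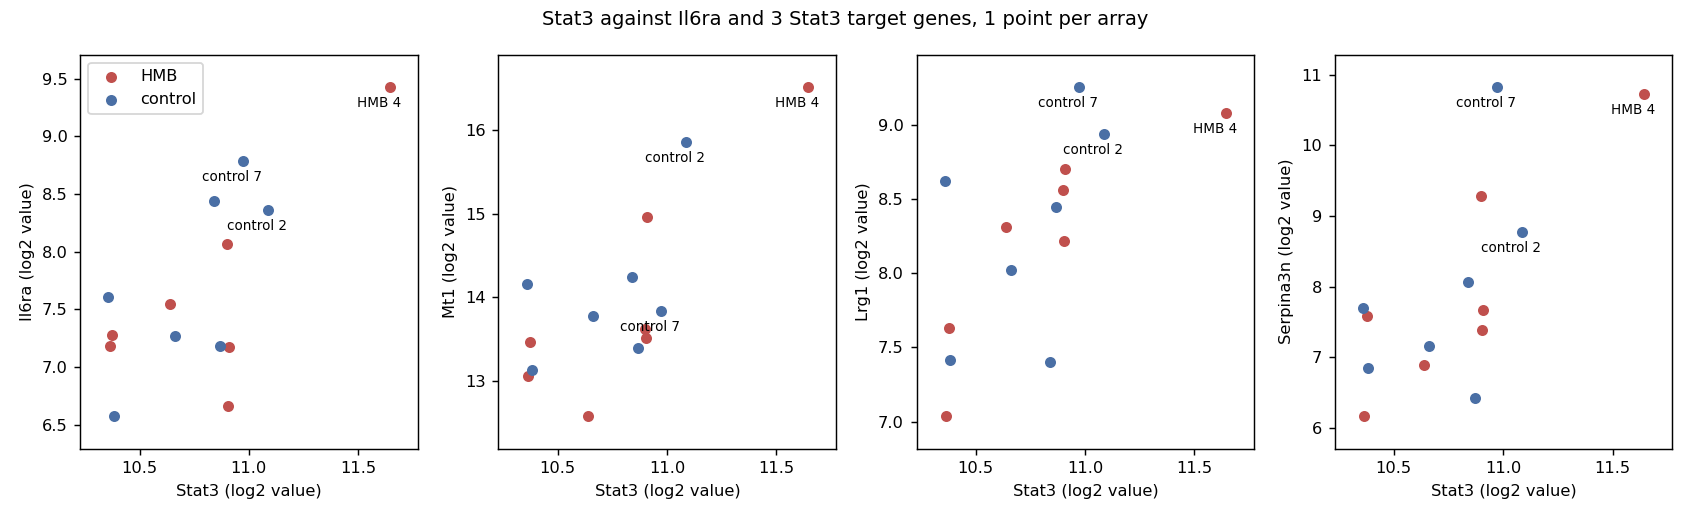
Log2 values of Il6ra and of the Stat3 target genes Mt1, Lrg1 and Serpina3n (vertical axes) against Stat3 (horizontal axis), 1 point per array, with HMB 4, control 2 and control 7 labelled. HMB 4 lies furthest to the right in each panel, at a Stat3 value of 11.65, and the Pearson r values are 0.707 for Il6ra, 0.752 for Mt1, 0.678 for Lrg1 and 0.715 for Serpina3n.

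The genes whose pattern over the arrays was most like that of Stat3, among 4558 genes whose mean was above the 95th percentile of the intron controls of at least 7 arrays, on values centred within group, were Slc25a5 (r = 0.843), Ptdss1 (0.801) and Hipk1 (0.793). Slc25a5 encodes an ADP/ATP carrier of mitochondria, Ptdss1 a phosphatidylserine synthase and Hipk1 a nuclear kinase. All 3 were highest on HMB 4, and without the 2 arrays farthest from the median of Stat3 their r over arrays was 0.606, 0.560 and 0.686. Being the highest of 4558 correlations, they describe these arrays, which also share whatever sets array quality.

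The feedback inhibitors differed from each other in whether they could be measured. Socs3, the direct inhibitor of gp130 signalling at chr11:117966079-117970336, was below the median of the intron controls on all 14 arrays. It was 3.02, 3.80 and 4.31 in HMB muscle and 2.83, 3.77 and 5.50 in control muscle. Control 1 and control 3, at 5.50 and 5.39, lay above every HMB array. The difference was -0.29 (SE 0.398, -1.14 to 0.55, limma adjusted p = 0.994, exact permutation p = 0.503), and it was -0.05 without control 1. The nearest patterns among 4559 genes were those of Clasp1, which encodes a microtubule-binding protein (r = 0.871), Atrn (0.821) and Plod1, a collagen lysyl hydroxylase (0.805). All 3 had 13 or 14 arrays above the 95th percentile of the intron controls, whereas Socs3 had none. Over arrays, r was 0.690 for Clasp1, 0.807 for Atrn and 0.812 for Plod1. Without control 1 and control 3, the arrays farthest from the median of Socs3, it was 0.546, 0.672 and 0.770. Being the highest of 4559 correlations with a gene at background, they describe these arrays only.

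Cish, at chr9:107296659-107302784, varied more between animals than nearly any other gene on the array. Its values in HMB 1 to 7 were 6.33, 8.21, 9.53, 8.32, 10.12, 9.03 and 11.37. In control 1 to 7 they were 11.16, 4.83, 10.87, 8.41, 7.77, 9.13 and 9.20. Both groups thus ran from near background to above its 95th percentile, with 1 HMB and 2 control arrays above that limit and control 2 alone below the median of the intron controls. The mean was 8.99 ± 1.60 in HMB muscle and 8.77 ± 2.13 in control muscle (SD, n = 7 each). The difference of 0.22 (SE 0.901, 95% confidence interval -1.70 to 2.14, limma adjusted p = 0.996, exact permutation p = 0.831) was far smaller than the spread between animals. It was -0.44 without control 2, -0.18 without HMB 7 and -0.03 with limma array weights, so its direction rests on single arrays.

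The SD within groups was 1.88 for Cish, which exceeded that of 99.6% of all genes and of 99.5% of the 1000 genes nearest to it in mean value, whose median SD was 0.42. Socs3 (SD 0.81) exceeded 91.0% and Il6ra (0.85) exceeded 89.2% of the genes nearest in mean. Il6st was at the other end, with an SD of 0.15 that exceeded 24.8% of such genes. The other 6 genes lay between 63.4% (Jak2) and 80.4% (Il6). These shares describe the spread between arrays, which holds both the animals' and the technical variation, since each animal had 1 array.

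**Figure D4:**
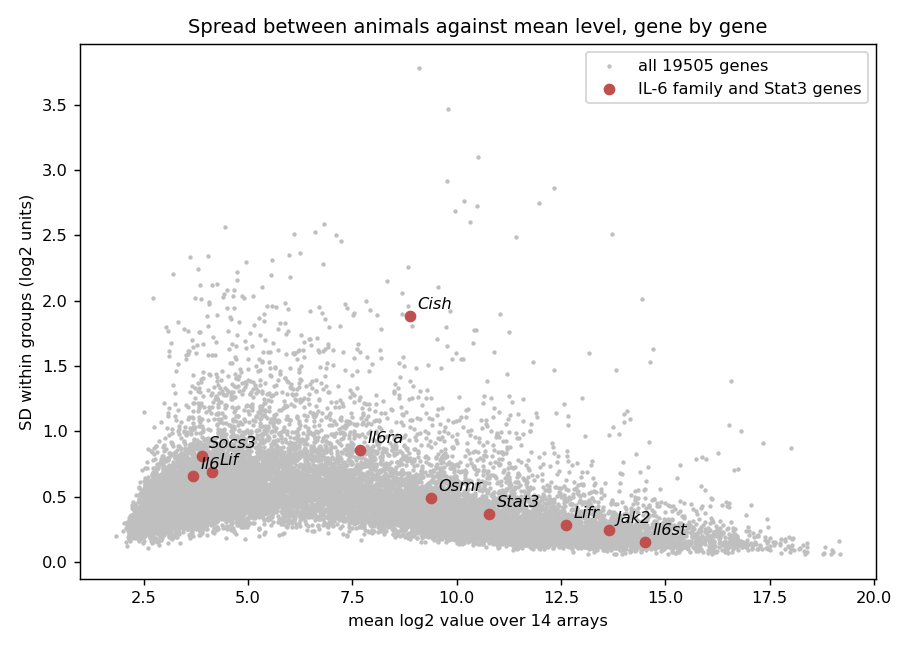
Standard deviation within groups (vertical axis, log2 units) against the mean log2 value over 14 arrays (horizontal axis) for all 19505 genes in grey and the 10 genes in red. Cish, at an SD of 1.88, lies far above the cloud at its mean, and Il6st, at 0.15, lies inside it.

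The 3 genes of most similar pattern to Cish among 4559 genes were Flvcr1, a transporter gene known for heme export (r = 0.908 on values centred within group), Atp9b, a P-type ATPase of the phospholipid flippase family (0.838), and Cited2, a regulator of CBP/p300-dependent transcription (0.827). As the highest of 4559 correlations, these values too describe these arrays. Flvcr1 ran from 8.88 on control 2 to 12.57 on HMB 7, the same arrays that were lowest and highest for Cish. Cited2 ran from 15.20 on control 2 to 16.78 on control 1, and Atp9b from 10.92 on control 2 to 11.77 on control 6. Cited2 and Atp9b were above the 95th percentile of the intron controls on all 14 arrays, whereas Flvcr1 was not above it on control 2, HMB 1, HMB 2 and HMB 3. Without control 2 and HMB 1, the arrays farthest from the median of Cish, r over arrays was 0.804 for Flvcr1, 0.827 for Cited2 and 0.605 for Atp9b. All 3 were lowest on control 2, which was also lowest in the mean of the endothelial markers (10.46, against 11.22 to 11.38 on the other control arrays) and of the fast muscle markers (17.98, against 18.21 to 18.34). The part of these differences between arrays in the Cish value was not tested. The TTCNNNGAA motif shown above for Cish had no copy in the windows of Flvcr1 and Cited2, and no window was matched to Atp9b. Among the growth hormone and Stat5 genes it had 1 and 3 copies in the windows of Bcl6, 1 copy in each of 2 of the 3 windows of Igfals, and none in the windows of Ghr, Igf1, Stat5a and Stat5b. No window was matched to Socs2, which is also on that list.

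**Figure D5:**
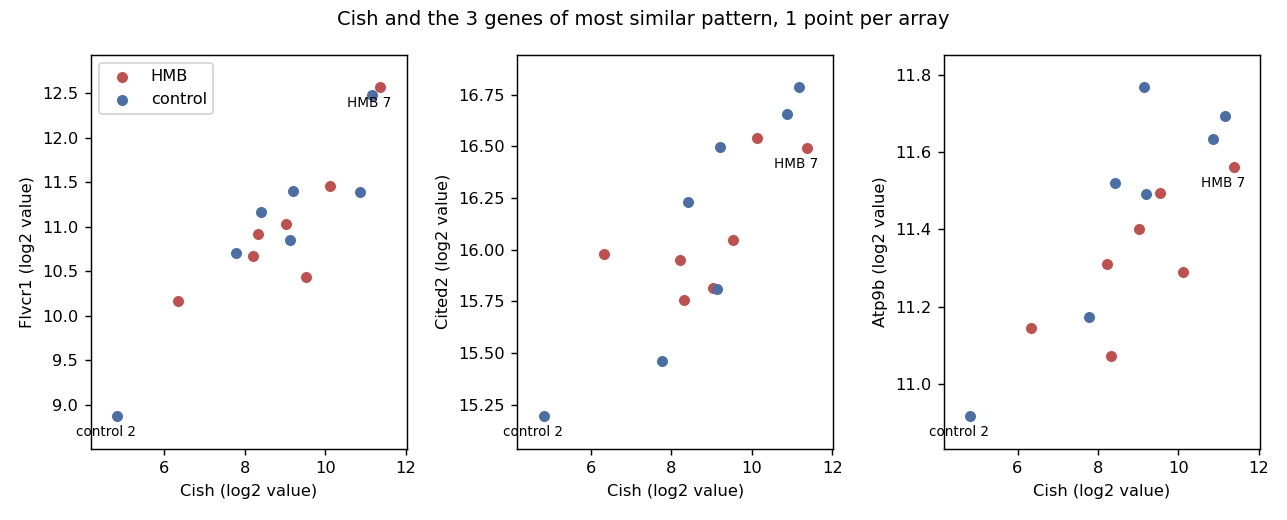
Log2 values of Flvcr1, Cited2 and Atp9b (vertical axes) against Cish (horizontal axis), 1 point per array, with HMB arrays in red and control arrays in blue. Control 2 is lowest for all 4 genes, and without control 2 and HMB 1 the r values are 0.804, 0.827 and 0.605.

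Growth hormone and Stat5 signalling is the route best known for inducing Cish. For 7 genes of that route, r with Cish ran from -0.484 to 0.387 and none had an unadjusted permutation p under 0.05, a comparison also added after the data had been seen. It too compares transcript levels, and Stat5 activation was not measured. In HMB against control muscle 1 of the 7 had a higher and 6 a lower mean, with a median difference of -0.11 and none with an unadjusted p under 0.05. Igf1, the growth factor that growth hormone induces, ran from 13.66 to 14.29 in HMB muscle and from 13.75 to 14.53 in control muscle (difference -0.20, limma adjusted p = 0.990). Stat5a, a transcription factor of that route, ran from 10.28 to 11.68 in HMB muscle and from 10.71 to 11.85 in control muscle (difference -0.31, adjusted p = 0.990). Stat5b, its close relative, ran from 11.71 to 12.58 in HMB muscle and from 12.00 to 12.44 in control muscle (difference 0.09, adjusted p = 0.996).

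The other brakes on the pathway were 14 SOCS, PIAS and phosphatase genes, of which 8 had a higher and 6 a lower mean in HMB, with a median difference of 0.0072. None passed the adjusted threshold. Socs7 ran from 10.56 to 11.05 in HMB muscle and from 9.35 to 10.97 in control muscle. Its difference of 0.45 (SE 0.208, 0.0091 to 0.89) had an unadjusted limma p of 0.0460 and an adjusted p of 0.990, and control 7 was its lowest array. It was 0.29 without control 7. Ptpn6, which encodes a phosphatase of blood cells, ran from 3.00 to 7.02 in HMB muscle and from 3.51 to 12.71 in control muscle. Its highest value was on control 7, the array with the lymphocyte markers, and the difference was -1.52 (adjusted p = 0.990), or -0.52 without control 7. Ptpn11, a phosphatase recruited by gp130, ran from 11.79 to 12.23 in HMB muscle and from 11.58 to 12.19 in control muscle (difference 0.16, adjusted p = 0.990). Over all 72 other pathway genes, each counted once, 30 had a higher and 42 a lower mean, and 1 higher (Socs7) and 3 lower (Il27, Adam10 and A2m) had an unadjusted p under 0.05, where 4.54% of all genes did.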

How the data were processed

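The deposited values are summarised probeset values that the authors made and that were read as log2. That scale was inferred from the values, and background correction, normalisation and summarisation are not given in the sources used here. The highest value per array was 19.21 to 19.54. Groups were taken from the sample titles. The table held 28846 rows, of which 22206 were gene probesets. The analysis used the 19572 that carry 1 gene symbol and not the 2634 that carry none, which gave 19505 genes, with 55 genes averaged over several probesets. Each of the 10 genes had 1 probeset. Differences of HMB minus control were fitted with limma 3.58.1 under R 4.3.3 (two-sided moderated test), and p-values were adjusted over all genes (Benjamini-Hochberg, threshold 0.05). Single genes were also tested by an exact permutation test over all 3432 splits of the arrays (two-sided, smallest possible p 0.000583). Correlations used 100000 permutations, two-sided. On simulated data with 19505 genes in the same design, limma recovered 16% of changes of 0.5, 62% of 1, 92% of 2 and 98% of 3 log2 units.

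The rule for the 10 genes takes no measured value, but the genes and the lists were chosen with earlier results of these data known. Named besides the 10 genes are, of each list, genes among the 2 of smallest unadjusted p in each direction, the 3 genes of most similar pattern to Stat3, Socs3 and Cish, and Stat3 targets chosen after their values were seen. Alternatives were renewed quantile normalisation, median centring, a filter on dim genes, the brightest probeset, all gene probesets, trend and robust variance settings, array weights, a replicate block, the methods' t-test and leaving out arrays. Precision is limited by the 7 arrays per group.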

Additional observations from a re-analysis of the deposited data

Results flagged for a closer look

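In 40 groups of 7 arrays (20 for the 10 genes and 20 for marker lists), 7 had a highest or lowest array far from the rest, where chance flags about 1 in 20 groups. Of the 20 groups for the 10 genes 1 was flagged, which is the share that chance flags. It was Stat3 in HMB muscle, with HMB 4 at 11.65 and the other HMB arrays at 10.36 to 10.91. The gap to the next array was 0.574 of the range, just past the critical value of 0.568. The mean of the fast muscle markers was 18.11 on HMB 3, while the remaining HMB arrays ran from 18.26 to 18.36. On control 2 it was 17.98, while the remaining control arrays ran from 18.21 to 18.34. Control 2 was also low in endothelial markers, at 10.46 against 11.22 to 11.38. Control 7 was high in lymphocyte markers, at 10.43 against 4.16 to 4.30, and in adipocyte markers, at 14.18 against 8.58 to 10.71. Control 3 was high in fibroblast markers, at 12.73 against 11.75 to 12.04.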

How the results depend on the processing

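No alternative brought any of the 10 genes past the adjusted threshold (smallest adjusted p 0.890), and the count of genes called over the whole array was 0 under all 24 alternatives. Of 237 differences of the 10 genes under alternatives, 230 kept their direction and 7, from 3 genes, reversed. Cish was -0.0282 with array weights and -0.44 to 0.66 with 1 array left out. Il6ra was -0.427 to 0.0472 with 1 array left out, and Stat3 was -0.0571 to 0.157, or -0.0182 without both control 7 and HMB 4, a setting chosen after seeing the data. The causes were not tested. Of the other pathway genes, Il31ra was -0.0628 with array weights, -0.0573 without both control 7 and HMB 4, and -0.14 to 0.17 with 1 array left out. Il11 was -0.0851 to 0.247 and Tyk2 -0.0084 to 0.19 with 1 array left out. The filter that kept genes at or above the median level left Il6, Lif and Socs3 untested. The r of Il6ra with Stat3 was 0.418 to 0.800 over the alternatives, with a smallest adjusted p of 0.0581.

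The sample titles do not say what the replicate numbers stand for. Arrays of the same number deviated together with r of -0.0748 to 0.121, and 2 of 7 pairs exceeded 0.1, with 1 of 7 matching its own number best. With so few pairs this cannot exclude a shared batch. With the number as a block, 0 genes passed and 958 had an unadjusted p under 0.05. The block left the difference of each of the 10 genes at its value (Stat3 0.08, Cish 0.22) and changed no call. The methods' t-test gave 853 genes at an unadjusted p under 0.05 and 0 after adjustment.

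The precision differs by gene. The 95% interval of the difference was -0.18 to 0.30 for Il6st and -1.70 to 2.14 for Cish. Il6, Lif and Socs3 were below the median of the intron controls on all arrays, so their differences say nothing of a level that rose or fell below that limit.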
